A study of Capsicum annuum and Solanum lycopersicum with 125 samples.

Results

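Auxin response genes of tomato were followed through graft healing in whole stem pieces. The list held 43 genes of 5 families: 21 Aux/IAA, 9 ARF, 8 GH3 and 4 AUX/LAX genes and 1 TIR1 gene, given by their Solyc gene identifiers; the families come with the list and were not checked against an annotation. Of these, 40 were among the 34688 tomato genes of the count table, and the Aux/IAA gene Solyc07g008020 and the GH3 genes Solyc01g107400 and Solyc08g068490 were not analysed here. A filter on low counts (at least 10 counts per library on average, and 0 counts in fewer than 75% of the 61 libraries) left 31 of the 40 for testing among 12176 tomato genes: 17 Aux/IAA, 6 ARF, 3 GH3, 4 AUX/LAX and the TIR1 gene. A gene that is high in only a few groups can pass or fail such a filter through those groups, so counts over the 31 genes describe the genes that passed and not the whole list.

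Auxin is perceived by TIR1 and related F-box proteins, which bind the hormone together with an Aux/IAA protein and mark the latter for degradation. Aux/IAA proteins repress the ARF transcription factors, which bind auxin response elements in promoters, so loss of Aux/IAA proteins releases ARF activity. Many Aux/IAA genes and GH3 genes are themselves transcribed in response to auxin, GH3 enzymes join auxin to amino acids and so lower the free hormone, and AUX/LAX proteins carry auxin into cells. In stems, auxin moving down from the shoot is known for its part in cambium activity, xylem formation and the reconnection of cut vasculature.

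All tomato tissue was of the variety M82. Tomato seedlings were 14 days old when grafted, were kept dark at first to heal, and 0.5 cm of stem was collected from the scion (the grafted shoot) and from the stock (the rooted base). Collection was at 3 ages, given as days after grafting (DAG): 7, 14 and 21. The 5 tomato groups of each day were ungrafted stems of the same age, scions and stocks of tomato grafted to tomato (self-grafted), tomato scions on stocks of the pepper Capsicum annuum var. California Wonder (heterografted scion) and tomato stocks under scions of that pepper (heterografted stock). Each of the 15 groups had 3 to 5 libraries, 61 in all, of 3' ends of polyadenylated RNA, each a biological replicate. Young grafts and heterografts were pulled apart by hand and older grafts cut along the junction, so the separation of scion from stock differed between groups. In such whole stem pieces, fewer cells of a type and less RNA per cell cannot be told apart.

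Outside the heterografted stocks of 14 and 21 DAG, the 55 libraries held 952084 to 3136541 counts. The heterografted stocks of 14 DAG held 900, 912 and 1509 counts and those of 21 DAG 32731, 226553 and 267066, and results on these 6 libraries are given apart. Marker sums were taken over 6 green tissue genes, 3 cellulose synthases of the secondary wall of xylem and the cambium regulator WOX4. All were detected in every group other than the heterografted stocks of 14 DAG and, for 1 of the cellulose synthases, of 21 DAG. Some libraries were highest of their group for many of the auxin genes. Heterografted scion replicate 4 of 21 DAG had the highest level of its 4 libraries for 21 of the 31 genes, with the highest green tissue sum (749 CPM) and secondary wall sum (1091 CPM) of its group. Likewise, heterografted stock replicate 1 of 7 DAG was highest of 4 for 18 genes and heterografted scion replicate 1 of 14 DAG for 15. Among the self-grafts, scion replicate 2 of 21 DAG was highest of 4 for 17 genes, scion replicate 3 of 14 DAG for 15, stock replicate 3 of 14 DAG highest of 5 for 15, and stock replicate 3 of 7 DAG highest of 3 for 15. Counts of calls are given below with and without these libraries. Levels are given in CPM, a gene's counts scaled by the total of its library, which are not divided by gene length and are compared only within a gene.

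Each comparison is given as an edgeR log2 fold change (log2FC) of the first group over the second, and as a p-value adjusted over all 12176 genes by Benjamini-Hochberg. A gene was called upregulated or downregulated at an adjusted p under 0.05 and a log2 fold change beyond 1.5 in either direction, and a gene that met the first of these is said to have passed the test. The map of log2 fold changes over the 31 tested genes and 16 comparisons shows 1 call in the 6 self-graft columns and the others in those of the heterografts. Comparisons of one day share their ungrafted or self-grafted libraries, so neighbouring columns are not independent. Of the 31 tested genes, 25 were called in at least 1 of these 16 comparisons. The share of all tested genes called at least once in them was not computed, so the 25 stand without a background. The comparisons include the shallow heterografted stocks of 21 DAG, where 60.3% and 59.8% of all tested genes were called. Several of the 25 had calls only in those stocks. These were the Aux/IAA genes Solyc12g007230, Solyc09g090910, Solyc06g008590 and Solyc03g120500 and the AUX/LAX gene Solyc11g013310. With them were the ARF genes Solyc01g103050, Solyc12g042070, Solyc02g077560 and Solyc03g031970. Genes with no call were the Aux/IAA genes Solyc03g120390 and Solyc09g064530, the ARF gene Solyc07g016180, the AUX/LAX genes Solyc09g014380 and Solyc10g076790 and the TIR1 gene Solyc09g074520.

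**Figure D1:**
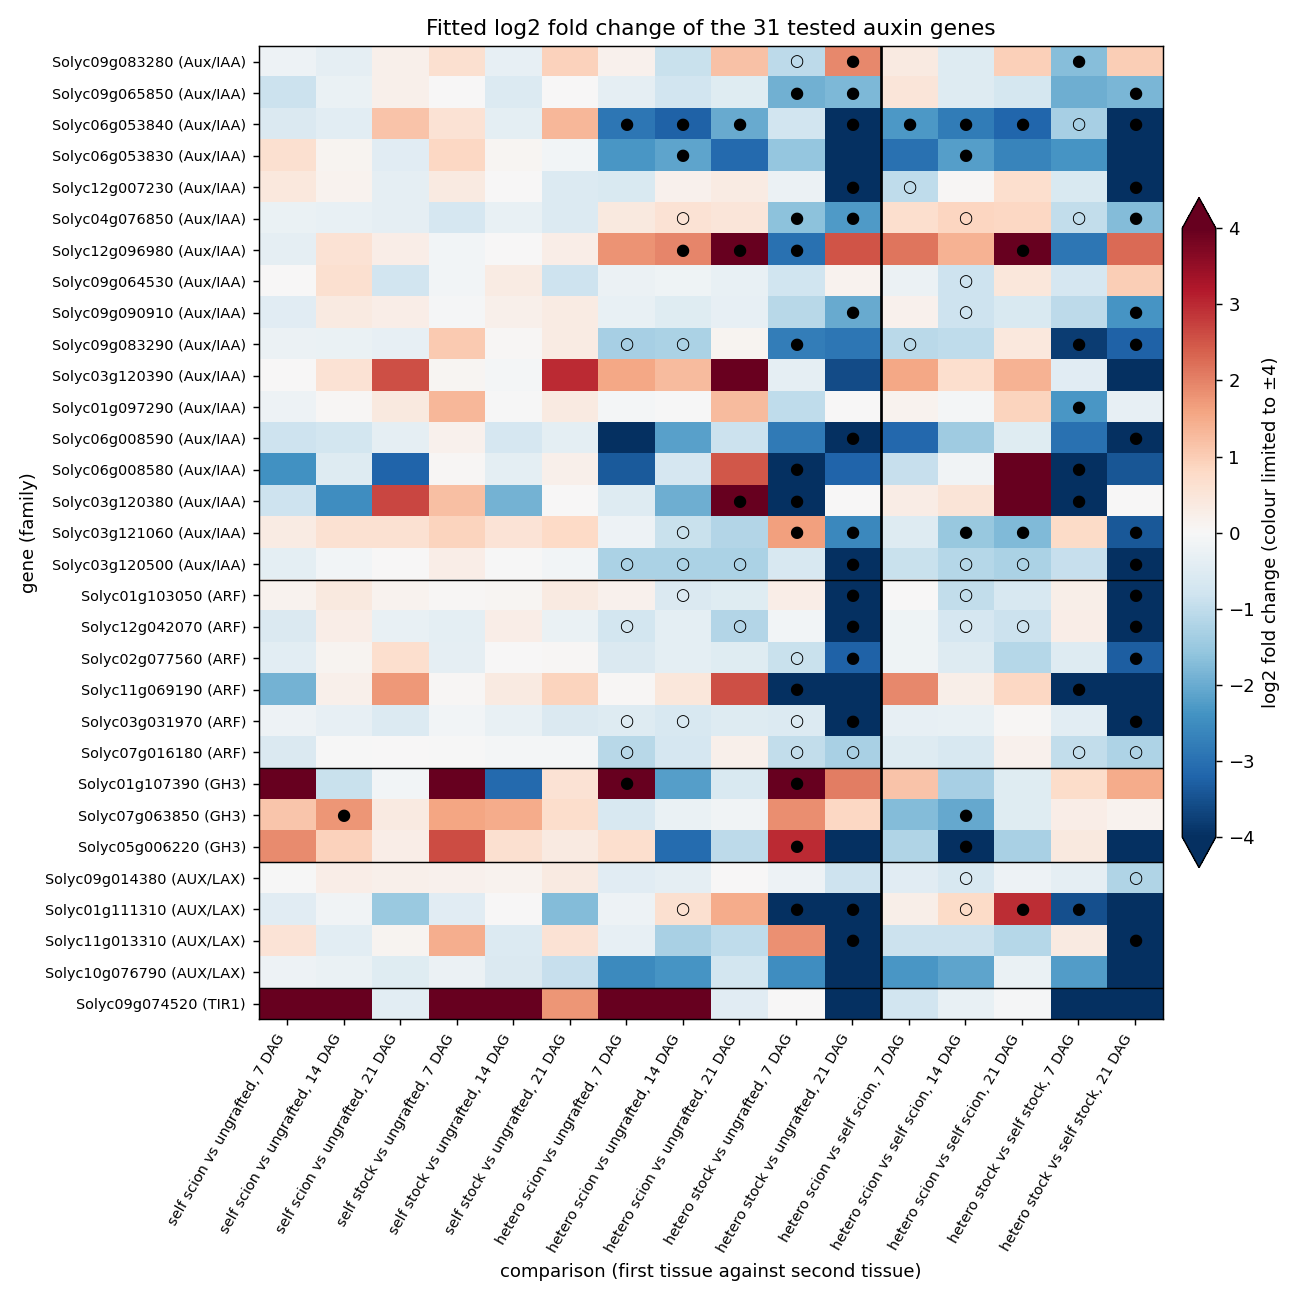
Fitted log2 fold change of each of the 31 tested auxin genes (rows, with the family) in 16 comparisons (columns), coloured from blue (lower in the first tissue) to red (higher), with colour limited to 4 in either direction. Filled circles mark genes with an adjusted p under 0.05 and a log2 fold change beyond 1.5, open circles an adjusted p under 0.05 alone. The heterografted stock columns of 21 DAG rest on 3 shallow libraries.

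In self-grafts, 1 auxin gene differed from ungrafted stems by the call rule over the 3 days. In scions, 0 of 31 genes were called at 7 DAG (1.93% of all tested genes called), 1 at 14 DAG (3.33%) and 0 at 21 DAG (0.156%), and in stocks 0 were called at 7 DAG (1.19%), 14 DAG (1.59%) and 21 DAG (0.0903%). At an unadjusted p under 0.05 the scion counts were 4, 8 and 2 genes and the stock counts 5 on each day. Shares of all tested genes were not computed for the unadjusted p or for DESeq2, so counts by those rules, here and below, stand without a background. The DESeq2 Wald test called 2, 2 and 0 genes in scions and 3, 1 and 0 in stocks. Among them were the TIR1 gene Solyc09g074520 at 7 and 14 DAG in both tissues and the GH3 gene Solyc01g107390 at 7 DAG in both, genes at 0 counts in every ungrafted library of 7 DAG. Without ungrafted replicate 1 of 7 DAG, edgeR called 1 gene in scions and 1 in stocks of that day, and without self-grafted stock replicate 3 of 14 DAG 1 gene in stocks. Self-grafted scions and stocks, which may come from the same plants, were also compared with each other by a test that did not pair them. EdgeR called 0 of the 31 genes and 0 of all 12176 on each day, with 5, 0 and 0 auxin genes at an unadjusted p under 0.05 at 7, 14 and 21 DAG, and DESeq2 called 0 auxin genes. The 1 gene called by edgeR was the GH3 gene Solyc07g063850 in the scion at 14 DAG. Its level was 10.4, 11.6, 13.6 and 21.96 CPM in self-grafted scions and 0, 3.69, 4.33, 4.85 and 5.59 CPM in ungrafted stems. These groups did not overlap (log2FC 1.77 ± 0.49 SE, adjusted p = 0.0248), and the call was lost when the fit held just the 2 groups or without ungrafted replicate 5, scion replicate 3 or scion replicate 5.

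In heterografted scions, 6.45%, 9.68% and 9.68% of the 31 genes were called against ungrafted stems at 7, 14 and 21 DAG. These lay near the shares of all tested genes given below. Against self-grafted scions 3.23%, 16.1% and 12.9% were called, and those of 14 DAG were all of lower levels. Against ungrafted stems, 1 auxin gene was upregulated and 1 downregulated at 7 DAG, where 5.08% of all tested genes were called higher and 3.08% lower (8.16% in either direction). The corresponding counts were 1 and 2 at 14 DAG (5.15% and 4.55% of all tested genes, 9.7% in either direction) and 2 and 1 at 21 DAG (3.88% and 3.56% of all tested genes, 7.44% in either direction). Against self-grafted scions, 0 were upregulated and 1 downregulated at 7 DAG (1.07% and 1.3% of all tested genes, 2.37% in either direction), 0 and 5 at 14 DAG (2.19% and 3.44% of all tested genes, 5.63% in either direction), and 2 and 2 at 21 DAG (3.53% and 4.6% of all tested genes, 8.13% in either direction). By adjusted p alone, 11 of 31 genes were lower and 2 higher than in self-grafted scions at 14 DAG, where 12.2% of all tested genes passed as lower and 11.4% as higher. The median log2 fold change of the 31 genes was -0.65 against 0.04 over all tested genes. The corresponding medians were -0.31 against 0.06 at 7 DAG and -0.21 against 0.03 at 21 DAG. With the shallow heterografted stocks of 14 DAG in the fit, DESeq2's size factors raised the median of all genes of that day by 0.41 against self-grafted scions and by 0.47 against ungrafted stems. They left 3 calls, all lower, against self-grafted scions. Without those stocks, a setting added after seeing the data, DESeq2's size factors kept all 9 calls of 14 DAG. Without replicate 1 of the 14 DAG heterografted scions the counts of calls were 3 against ungrafted stems and 4 against self-grafted scions, and without replicate 4 of the 21 DAG group 3 and 5. The 3 calls against ungrafted stems at 14 DAG became 1 without heterografted scion replicate 3 or 4 or ungrafted replicate 1, and the 5 against self-grafted scions became 2 without heterografted scion replicate 4 and 3 without self-grafted scion replicate 1, and were 4 without self-grafted scion replicate 3. At 21 DAG the 3 calls against ungrafted stems became 0 without heterografted scion replicate 3 and 1 without its replicate 1 or without ungrafted replicate 1 or 4, and the 4 against self-grafted scions became 2 without heterografted scion replicate 1 or 3 or self-grafted scion replicate 2, 3 or 5.

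Marker sums also differed in the heterografted scions, that of the secondary wall with the day and the reference. At 7 DAG the secondary wall sum was 473 to 557 CPM, below the 1143 to 1662 CPM of ungrafted stems and the 822 to 1245 CPM of self-grafted scions. At 14 DAG it was 446 to 1095 CPM, below self-grafted scions at 2186 to 3095 CPM and overlapping ungrafted stems at 833 to 1269 CPM. At 21 DAG, at 363 to 1091 CPM, it overlapped ungrafted stems (189 to 518 CPM) and self-grafted scions (223 to 682 CPM) and had the highest mean of the 3 groups. The green tissue sum lay at 413 to 853, 224 to 884 and 174 to 749 CPM at 7, 14 and 21 DAG, below all ungrafted libraries at 7 and 14 DAG and below all self-grafted scions on each day. WOX4 stood at 87.1 to 111 CPM in heterografted scions of 21 DAG against 2.33 to 16.3 CPM in ungrafted stems and 0 to 25.9 CPM in self-grafted scions. The part of these differences in the auxin results was not tested.

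The auxin receptor gene of the list, Solyc09g074520 (TIR1), was either listed at 0 or well above it in each library. It was listed at 0 counts in 42 of the 61 libraries (68.9%) and at 165 counts or more in the other 19, with nothing between, and both states occurred among replicates of one group in 9 of 14 groups. At 7 DAG its level was 0, 0, 145 and 171 CPM in self-grafted scions, 0, 0 and 102 CPM in self-grafted stocks and 0, 0, 0, 110.0 and 123 CPM in heterografted scions. All ungrafted stems of 7 and 14 DAG and all heterografted stocks were at 0, while self-grafted stocks of 21 DAG held 145, 255, 264, 277 and 329 CPM. The 42 libraries at 0 include the shallow heterografted stocks of 14 and 21 DAG. In those of 14 DAG 3 counts correspond to 1988 to 3333 CPM, so their zeros do not bear on the level of this gene. In those of 21 DAG 3 counts correspond to 13.2, 91.7 and 11.2 CPM. By edgeR with all groups of a day in the fit, TIR1 passed in no comparison (smallest adjusted p = 0.0846), whereas the DESeq2 Wald test called it in 11. With just the compared groups in the fit, edgeR called it lower in the shallow heterografted stocks of 21 DAG than in self-grafted stocks (adjusted p = 2.76e-04). The edgeR test with DESeq2's size factors, with the shallow heterografted stocks of 14 DAG in the fit, called it in heterografted scions of that day against ungrafted stems (adjusted p = 0.0395).

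A split of this kind was not limited to TIR1. Of the 31 tested genes, 11 (35.5%) had at least 1 of 14 groups with a library at 0 and another at 50 counts or more, against 26.2% of all tested genes, and 3 (9.68%) had it in more than 5 groups, against 1.05% of all tested genes. These 3 were TIR1, the GH3 gene Solyc01g107390 in 8 groups and the AUX/LAX gene Solyc10g076790 in 7. In the latter, ungrafted stems of 7 DAG held 0, 37.6, 53.6 and 59.96 CPM and self-grafted stocks of 21 DAG 0, 0, 0, 54.5 and 78.4 CPM. The plot of the 3 genes by library shows points on the zero line beside points far above it in most groups. Why libraries split this way was not tested.

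**Figure D2:**
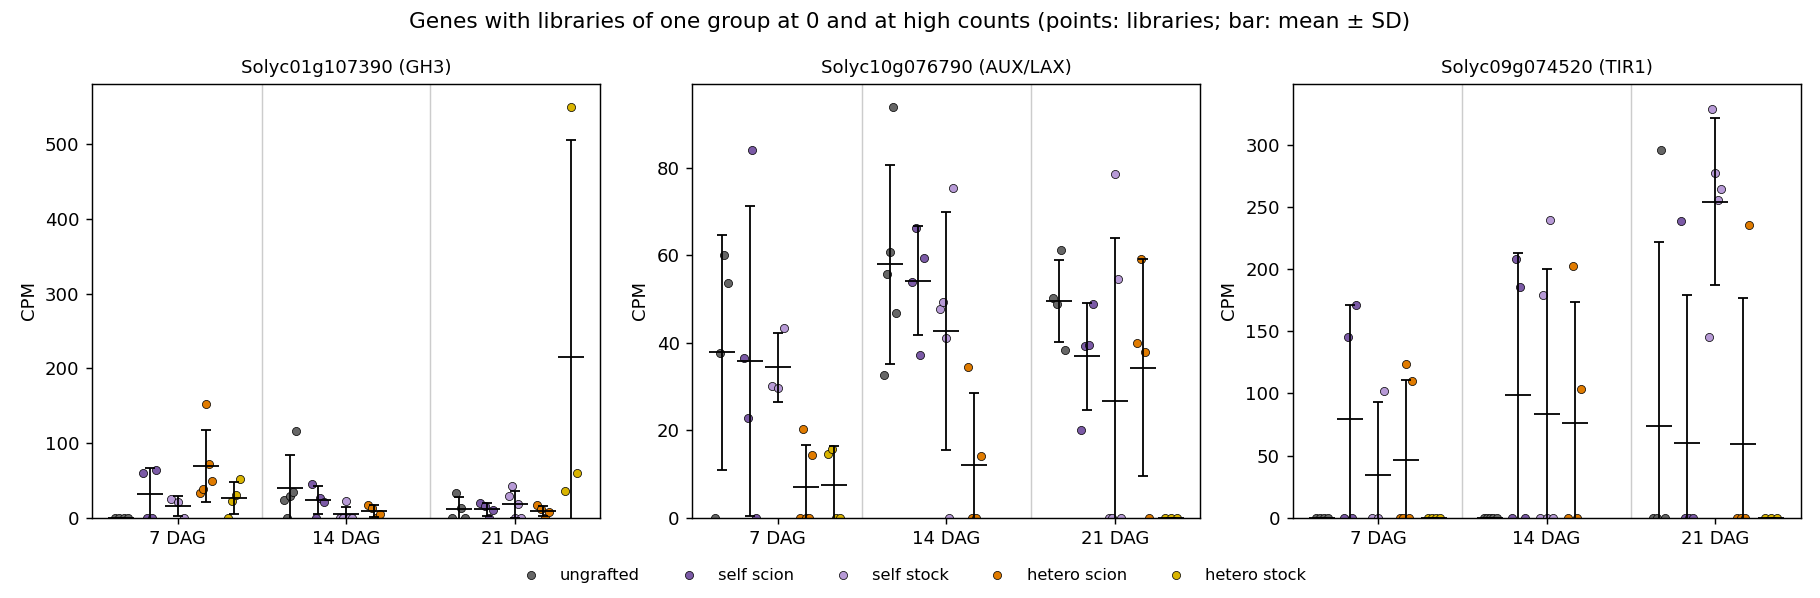
Levels (CPM, linear axis) of Solyc01g107390 (GH3), Solyc10g076790 (AUX/LAX) and Solyc09g074520 (TIR1) in each library (points) at 7, 14 and 21 DAG, coloured by group, with bars for mean ± SD, cut at 0, and without the heterografted stocks of 14 DAG. In TIR1 the 5 self-grafted stocks of 21 DAG all lie above 0 (145 to 329 CPM), while each other group drawn holds at least 1 library at 0.

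Among the Aux/IAA genes, the repressors of ARF activity, Solyc06g053840 had the most calls, 8 in the 16 comparisons of the map, 6 of them in heterografted scions, where it was lower on all 3 days against both references. At 7 DAG the 5 heterografted scions held 19.1, 19.9, 21.5, 27.2 and 36.3 CPM, against 104, 171, 172 and 220.0 CPM in ungrafted stems and 75.4, 119, 122 and 166 CPM in self-grafted scions. All 5 lay below every library of either reference. The fitted level was 7.41-fold lower than in ungrafted stems (log2FC -2.89 ± 0.37 SE, adjusted p = 3.38e-05) and 4.96-fold lower than in self-grafted scions (log2FC -2.31, adjusted p = 8.96e-04).

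At 14 DAG the same gene, Solyc06g053840, was at 18.5, 23.1, 25.9 and 33.6 CPM in heterografted scions, at 178, 196, 219, 259 and 262 CPM in ungrafted stems and at 132, 176, 196 and 226 CPM in self-grafted scions. The groups were again separate, with log2 fold changes of -3.23 ± 0.23 (SE, adjusted p = 1.34e-07) and -2.80 ± 0.23 (SE, adjusted p = 1.00e-06). At 21 DAG heterografted scions held 34.9, 39.9, 51.2 and 139 CPM, ungrafted stems 119.7, 204, 224 and 405 CPM and self-grafted scions 342, 499, 544 and 823 CPM. The library at 139.3 CPM, replicate 4, overlapped the lowest ungrafted stem but none of the self-grafted scions. The log2 fold change was -2.03 (adjusted p = 0.0127) against ungrafted stems and -3.17 (adjusted p = 7.73e-04) against self-grafted scions, and without replicate 4 it was -2.70 and -3.84. The call against ungrafted stems at 21 DAG was lost without scion replicate 1, 2 or 3, and the other 5 scion calls of the gene held with any 1 library left out. Its self-grafted stocks held 164, 218 and 414 CPM at 7 DAG, 136, 159, 171, 219 and 242 CPM at 14 DAG and 450.0, 554, 619, 683 and 734 CPM at 21 DAG.

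The Aux/IAA gene with the next identifier, Solyc06g053830, was called lower in heterografted scions of 14 DAG alone. At 14 DAG it was at 1.48, 1.62, 2.31 and 3.19 CPM in heterografted scions, 6.96, 7.67, 11.7 and 15.6 CPM in self-grafted scions and 0, 6.55, 9.89, 12.1 and 15.6 CPM in ungrafted stems. The scion groups did not overlap (log2FC -2.19 ± 0.65 SE, adjusted p = 0.0224), while 1 ungrafted library at 0 lay below the heterografted scions (log2FC -2.10, adjusted p = 0.0214). Each of the 2 calls was lost in 4 fits with 1 library left out, heterografted scion replicates 1, 3 and 4 among them, and under DESeq2 scaling and testing, and that against ungrafted stems also when the fit held just the compared groups. With the shallow heterografted stocks of 14 DAG left out of the fit, DESeq2 scaling kept both calls. On the other days the levels were 0, 0, 0, 1.47 and 2.07 CPM in heterografted scions at 7 DAG and 0, 0, 0 and 3.73 CPM at 21 DAG. Self-grafted scions held 3.27, 6.28, 7.84 and 9.45 CPM and 0, 0, 11.97 and 12.8 CPM, and neither day passed the test. How the counting shared out reads that match several Aux/IAA genes is not given in the sources used here, so genes of close sequence carry that uncertainty.

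Solyc03g120500, also Aux/IAA, passed the test in heterografted scions on each day against ungrafted stems without reaching the fold threshold. It stood at 66.7, 106, 113, 125 and 144 CPM at 7 DAG, 107, 135, 145 and 166 CPM at 14 DAG and 128, 138, 165 and 240.4 CPM at 21 DAG. The ungrafted stems held 209, 217, 254 and 279.8 CPM, 248, 265, 276, 337 and 439.8 CPM and 259, 331, 392 and 427 CPM on the same days. No heterografted scion reached an ungrafted stem of its day, and the log2 fold changes were -1.26 (adjusted p = 0.00595), -1.28 (adjusted p = 3.36e-04) and -1.27 (adjusted p = 0.0254). Against self-grafted scions, at 149, 151, 228 and 268 CPM, 233, 308, 342 and 396 CPM and 316, 323, 365 and 476 CPM, it passed at 14 DAG (log2FC -1.15, adjusted p = 0.00125) and 21 DAG (log2FC -1.27, adjusted p = 0.0235) and not at 7 DAG (log2FC -0.88, adjusted p = 0.0978).

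Solyc03g121060 (Aux/IAA) was lower in heterografted scions of the later days and higher in the heterografted stock of 7 DAG. At 14 DAG the scions held 65.1, 87.3, 89.6 and 107 CPM against 222, 250.4, 260.3 and 294 CPM in self-grafted scions and 111, 133, 143, 180.5 and 187 CPM in ungrafted stems, with no overlap (log2FC -1.51, adjusted p = 2.81e-04 and log2FC -0.89, adjusted p = 0.00889, the latter short of the fold threshold). At 21 DAG they held 66.96, 93.5, 102 and 116 CPM against 209.8, 236, 297 and 428 CPM in self-grafted scions (log2FC -1.76 ± 0.41 SE, adjusted p = 0.00756). The ungrafted stems of 21 DAG, at 74.4, 199, 216 and 244 CPM, overlapped them. At 7 DAG, however, the heterografted stocks held 195, 216, 239 and 257 CPM, above the 57.9, 59.96, 66.6 and 70.7 CPM of ungrafted stems (log2FC 1.65 ± 0.31 SE, adjusted p = 4.40e-04). Heterografted scions of that day, at 34.8, 39.8, 57.4, 79.1 and 98.7 CPM, were called lower than these stocks (log2FC -1.85, adjusted p = 8.71e-05). Self-grafted stocks of that day, at 84.3, 108 and 189 CPM, lay between. The call at 14 DAG sat close to the fold threshold and was lost under DESeq2, without the filter, or without self-grafted scion replicate 1 or heterografted scion replicate 1 or 4. It was kept with DESeq2's size factors once the shallow heterografted stocks of 14 DAG were left out of the fit.

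**Figure D3:**
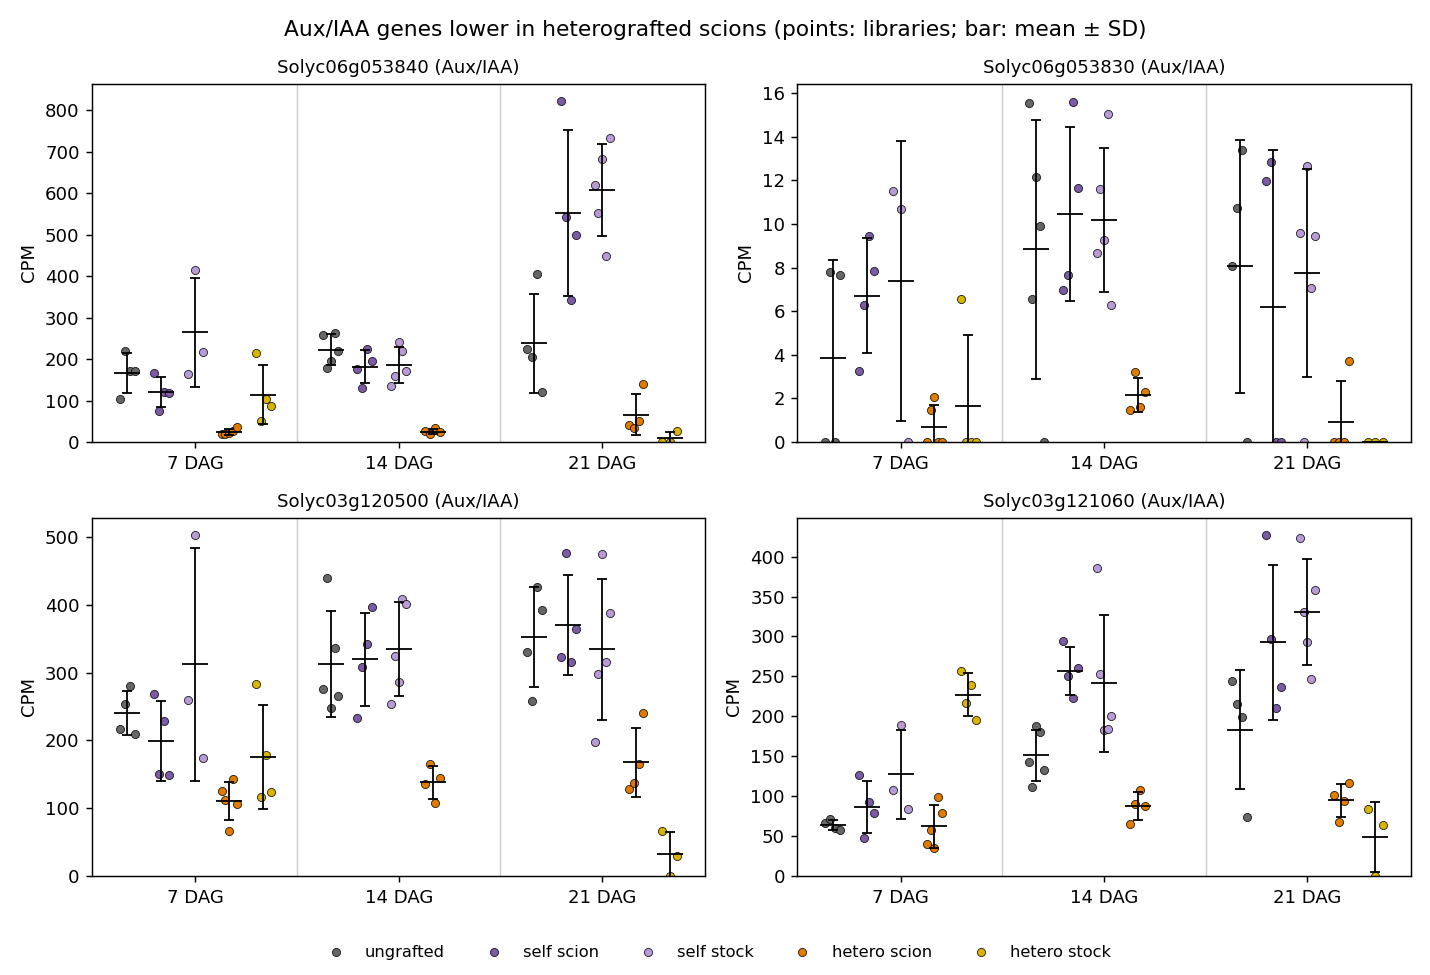
Levels (CPM, linear axes) of 4 Aux/IAA genes in each library (points) at 7, 14 and 21 DAG, coloured by group, with bars for mean ± SD; the heterografted stocks of 14 DAG are not drawn. The heterografted scions of Solyc06g053840 lie at 19.1 to 36.3 CPM at 7 DAG and 18.5 to 33.6 CPM at 14 DAG, below all ungrafted stems and self-grafts of the day.

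In the opposite direction, Solyc12g096980 (Aux/IAA) was higher in heterografted scions. At 21 DAG these held 22.1, 28.2, 28.7 and 30.7 CPM, while ungrafted stems held 0, 0, 0 and 2.68 CPM and self-grafted scions 0, 0, 0 and 3.53 CPM. The groups did not overlap, and the gene was called against both (log2FC 4.97 ± 1.34 SE, adjusted p = 0.0191; log2FC 4.72 ± 1.32 SE, adjusted p = 0.0219). Each of these folds rested on 1 reference library above 0. Without it (ungrafted replicate 2 or self-grafted scion replicate 4) the reference was at 0 throughout, and the scions were at least 15.8-fold and at least 15.99-fold higher against a floor of 3 counts per library. At 14 DAG the scions held 11.5, 12.6, 27.4 and 43.3 CPM against 0, 6.31, 6.38, 7.20 and 8.19 CPM in ungrafted stems, again without overlap (log2FC 1.96, adjusted p = 0.0498). At 7 DAG they held 16.98, 24.8, 27.6, 41.1 and 46.8 CPM against 0, 9.09, 10.7 and 12.7 CPM, which did not pass the test (log2FC 1.79, adjusted p = 0.251). Self-grafted scions held 0, 4.90, 5.997 and 15.4 CPM at 7 DAG and 5.80, 6.39, 11.2 and 14.2 CPM at 14 DAG. The 14 DAG call was at the edge of the threshold and was lost in all 9 fits with 1 library left out. The 21 DAG calls were lost in 3 of 8 such fits (ungrafted replicate 1 or 4 or scion replicate 3) against ungrafted stems and in 5 of 8 against self-grafted scions.

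The heterografted stocks of 7 DAG carried 3 upregulated and 8 downregulated auxin genes against ungrafted stems, where 9.46% of all tested genes were called higher and 10% lower (19.5% in either direction). Against self-grafted stocks 0 were upregulated and 7 downregulated (2.48% and 7.99% of all tested genes, 10.5% in either direction). The median log2 fold change of the 31 genes was -0.90 against ungrafted stems and -0.98 against self-grafted stocks, beside 0.05 and -0.07 over all tested genes. Without replicate 1 the counts of calls were 11 and 10, without replicate 5 they were 6 and 5, and without self-grafted stock replicate 3 there were 5 against self-grafted stocks. The green tissue sum was 3048 to 5326 CPM in this group against 1782 to 2897 CPM in ungrafted stems, the secondary wall sum 206 to 349.7 CPM against 1143 to 1662 CPM, and WOX4 0 to 33.9 CPM against 20.1 to 46.3 CPM. The part of these in the results was not tested. By family, 6 of 17 Aux/IAA genes, 1 of 6 ARF genes and 1 of 4 AUX/LAX genes were downregulated and 1 Aux/IAA and 2 of 3 GH3 genes upregulated against ungrafted stems.

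A pair of Aux/IAA genes were at 0 in each of the 4 heterografted stocks of 7 DAG. Solyc03g120380 held 23.7, 24.7, 27.9 and 45.4 CPM in ungrafted stems, 30.01, 45.8 and 147 CPM in self-grafted stocks and 19.4, 21.5, 23.3, 24.7 and 25.3 CPM in heterografted scions of that day. Set against a floor of 3 counts per library, its level in the heterografted stocks was at least 18.1-fold lower than in ungrafted stems (adjusted p = 1.78e-04). It was at least 44.3-fold lower than in self-grafted stocks (adjusted p = 1.12e-04), or at least 22.6-fold without self-grafted stock replicate 3, the library at 147 CPM. It was at least 13.6-fold lower than in heterografted scions (adjusted p = 3.36e-04). Its ungrafted stems fell from 7 to 21 DAG, when each of the 4 was at 0. Against these the heterografted scions of 21 DAG, at 0, 8.61, 13.98 and 18.5 CPM, were called higher (adjusted p = 0.0485), a call lost in 7 of 8 fits with 1 library left out and by DESeq2, without the filter or when the fit held just the compared groups.

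The other of the pair, Solyc06g008580, held 15.4, 18.1, 21.3 and 39.6 CPM in ungrafted stems and 9.29, 32.01 and 37.6 CPM in self-grafted stocks. Against the same floor it was at least 14.04-fold lower (adjusted p = 0.00206) and at least 15.6-fold lower (adjusted p = 0.00410). Heterografted scions held 0, 0, 2.58, 3.80 and 6.21 CPM and overlapped the stocks at 0, and although called higher (adjusted p = 0.0442) this difference was lost in 7 of 9 fits with 1 library left out, without the filter and when the fit held just the compared groups. At 14 DAG the gene ranged from 0 to 20.3 CPM in ungrafted stems and at 21 DAG it was at 0 in all libraries but ungrafted replicate 1, self-grafted stock replicate 4 and heterografted scion replicate 4. Solyc06g008590, its neighbour by identifier, was at 0, 0, 2.04 and 11.5 CPM in heterografted stocks of 7 DAG and 0, 22.7, 30.6 and 32.2 CPM in ungrafted stems, which did not pass (log2FC -2.82, adjusted p = 0.131). In its heterografted scions of that day, at 0, 0, 0, 2.95 and 4.43 CPM, 3 of 5 libraries were at 0.

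Solyc09g083290 (Aux/IAA) was well below both references in the heterografted stocks of 7 DAG. These held 10.4, 13.6, 17.9 and 39.3 CPM, ungrafted stems 86.3, 120.1, 128 and 141 CPM and self-grafted stocks 169, 297 and 332 CPM. The groups did not overlap, and the level was 6.80-fold lower than in ungrafted stems (log2FC -2.77 ± 0.34 SE, adjusted p = 6.33e-06) and 14.03-fold lower than in self-grafted stocks (log2FC -3.81 ± 0.36 SE, adjusted p = 5.84e-07). Both calls were kept in every alternative fit run. The heterografted scions, at 32.7, 42.9, 55.05, 65.5 and 66.2 CPM, were also below ungrafted stems (log2FC -1.32, adjusted p = 0.00434) and self-grafted scions (log2FC -1.09, adjusted p = 0.0355), passing the test without a call. At 14 DAG the scions held 36.98, 41.3, 62.4 and 127 CPM against 87.8, 100.02, 104, 231 and 248 CPM (log2FC -1.28, adjusted p = 0.0280), with overlap. At 21 DAG they held 14.9, 49.4, 58.7 and 211 CPM against 0, 59.01, 90.1 and 122 CPM, where replicate 4 was the highest library and the test was not passed (log2FC 0.11, adjusted p = 0.963).

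Its neighbour by identifier, Solyc09g083280 (Aux/IAA), held 9.23, 10.2, 26.2 and 28.8 CPM in heterografted stocks, 34.7, 64.1 and 76.02 CPM in self-grafted stocks and 28.1, 28.2, 38.96 and 41.5 CPM in ungrafted stems at 7 DAG. It was downregulated against self-grafted stocks (log2FC -1.71 ± 0.40 SE, adjusted p = 0.00499) and passed without a call against ungrafted stems (log2FC -1.05, adjusted p = 0.0386), which overlapped. The first of these was lost without self-grafted stock replicate 2 or heterografted stock replicate 3, or when the fit held just the compared groups.

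Solyc04g076850 (Aux/IAA) differed between tomato scions on pepper and tomato stocks under pepper. At 7 DAG the heterografted stocks held 208, 388, 402 and 434 CPM and the heterografted scions 1206, 1295, 1368, 1494 and 1746 CPM, on either side of the ungrafted stems at 855, 877, 1084 and 1156 CPM. The stock was downregulated against ungrafted stems (log2FC -1.65 ± 0.22 SE, adjusted p = 1.26e-05), a call lost without stock replicate 5, and lower than the self-grafted stocks, at 615, 665 and 734 CPM, without a call (log2FC -0.97, adjusted p = 0.00463). These scions and stocks, which come from reciprocal grafts, differed 4.15-fold (log2FC 2.05 ± 0.21 SE, adjusted p = 1.13e-06). The scion itself passed the test at 14 DAG, with 1057, 1371, 1559 and 1601 CPM against 759, 762, 833 and 847 CPM in self-grafted scions (log2FC 0.86, adjusted p = 0.00479) and 697, 758, 863, 1012 and 1062 CPM in ungrafted stems (log2FC 0.57, adjusted p = 0.0318). At 7 DAG it did not (log2FC 0.40, adjusted p = 0.201 against ungrafted stems). At 21 DAG, when it did not pass either, it held 1003, 1131, 1199 and 1479 CPM against 489, 609.7, 649.9 and 688 CPM in self-grafted scions (log2FC 0.84, adjusted p = 0.0653) and 477, 667, 674 and 1188 CPM in ungrafted stems (log2FC 0.47, adjusted p = 0.328).

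Solyc09g065850 (Aux/IAA) was at 0, 3.06, 8.06 and 9.47 CPM in heterografted stocks of 7 DAG, 13.6, 14.1, 19.99 and 22.1 CPM in ungrafted stems and 16.1, 20.2 and 20.5 CPM in self-grafted stocks. It was called against ungrafted stems (log2FC -1.93 ± 0.65 SE, adjusted p = 0.0269), a call lost without ungrafted replicate 2 or stock replicate 5 or when the fit held just the compared groups. Against self-grafted stocks, which it did not overlap, it did not pass by edgeR (log2FC -1.94, adjusted p = 0.0518). The DESeq2 Wald test called that difference (log2FC -1.90, adjusted p = 0.00299). Solyc12g096980, the gene higher in the scions, was at 0, 0, 0 and 3.82 CPM in the heterografted stocks of 7 DAG. It was called lower than in ungrafted stems, whose library at 0 overlapped (log2FC -2.99, adjusted p = 0.0492, lost in 6 of 8 fits with 1 library left out, with DESeq2's size factors, without the filter and with just the compared groups). Heterografted scions of that day lay above these stocks with no overlap (log2FC 4.78 ± 1.17 SE, adjusted p = 0.00414). Without stock replicate 2, the 1 above 0, the stocks were at least 4.48-fold lower than ungrafted stems and the scions at least 17.3-fold higher than the stocks.

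**Figure D4:**
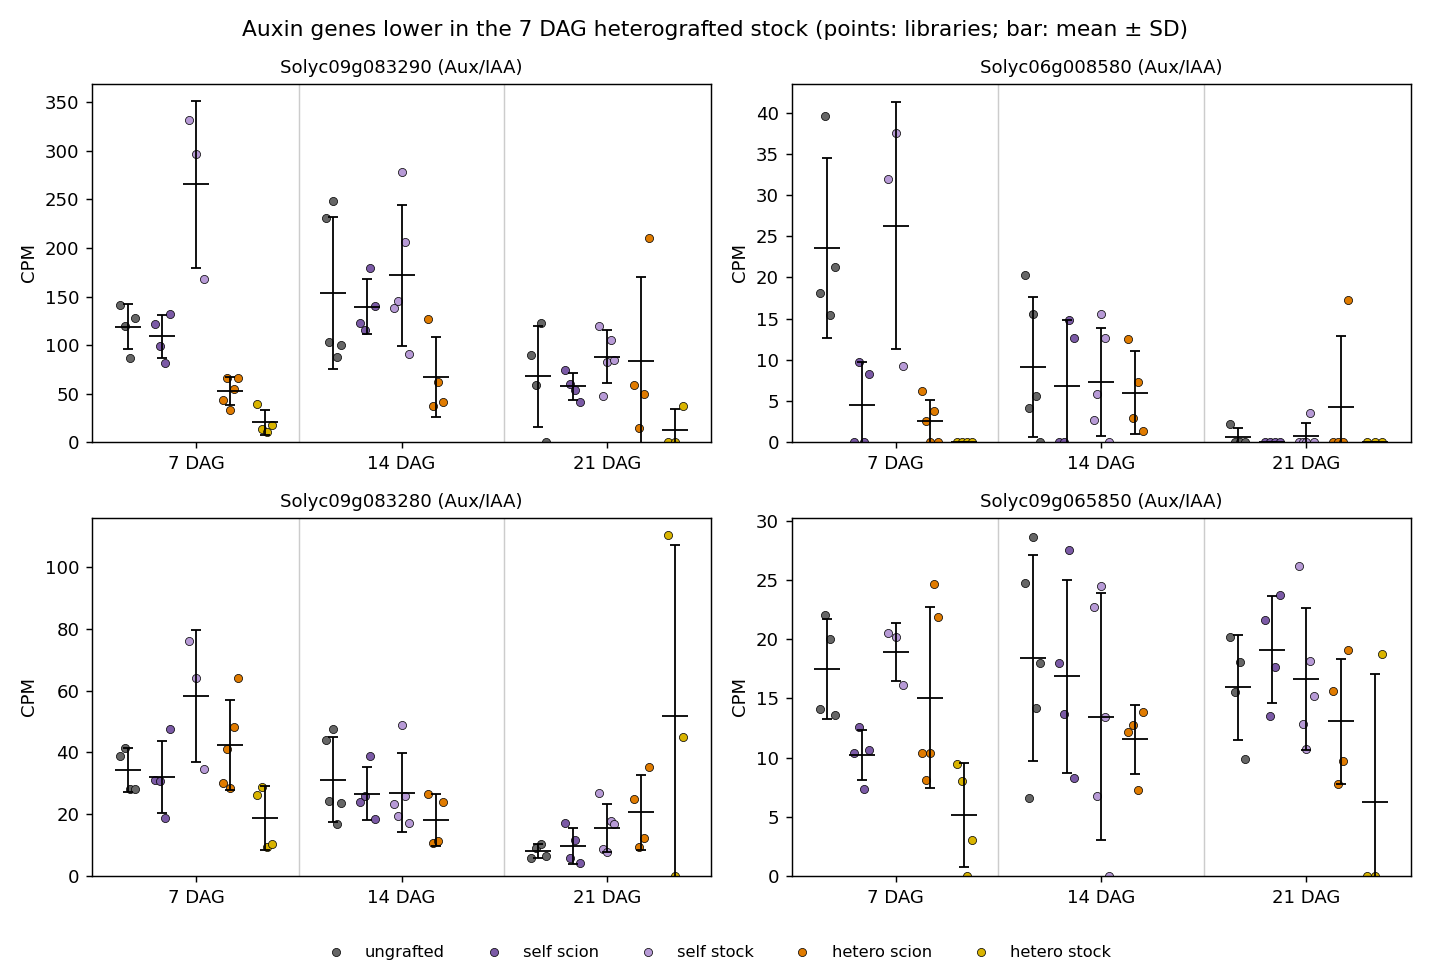
Levels (CPM, linear axes) of 4 Aux/IAA genes in each library (points) at 7, 14 and 21 DAG, coloured by group, with bars for mean ± SD, cut at 0, and without the heterografted stocks of 14 DAG. Heterografted stocks of 7 DAG lie at 10.4 to 39.3 CPM for Solyc09g083290 and at 0 in all 4 libraries for Solyc06g008580.

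Tomato scions on pepper and tomato stocks under pepper come from different, reciprocal grafts, so their comparison is between graft types and not across one junction. At 7 DAG, 6 auxin genes were called higher in these scions than in these stocks and 3 lower, where 8.93% of all tested genes were called higher and 6.03% lower (15% in either direction). The higher genes were the Aux/IAA genes Solyc04g076850, Solyc12g096980, Solyc03g120380 and Solyc06g008580, the AUX/LAX gene Solyc01g111310 and the ARF gene Solyc11g069190, and the lower ones the Aux/IAA genes Solyc06g053840 and Solyc03g121060 and the GH3 gene Solyc05g006220. For Solyc06g053840 the scion libraries, 19.1 to 36.3 CPM, lay below the stocks at 49.6, 85.8, 105 and 216 CPM (log2FC -2.13 ± 0.37 SE, adjusted p = 2.34e-04). The calls for Solyc05g006220 and Solyc06g008580 were lost in 5 and 7 of 9 fits with 1 library left out, and the other 7 in none. Without stock replicate 1, 10 genes were called. Without that library, which alone held Solyc11g069190 among the stocks, this gene was at least 7.83-fold higher in the scions.

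**Figure D5:**
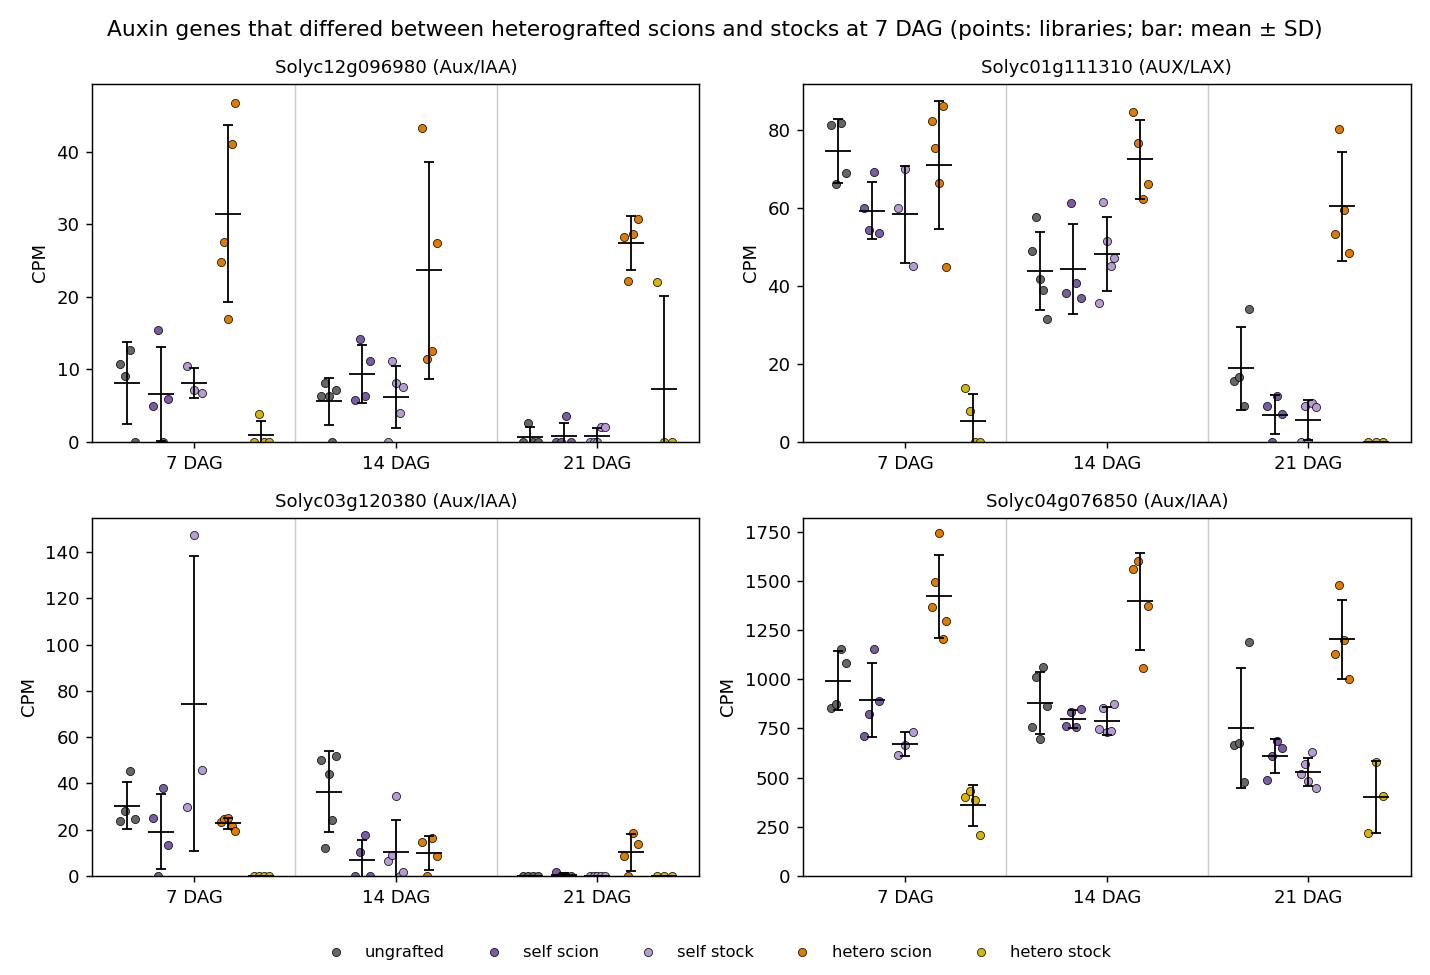
Levels (CPM, linear axes) of 3 Aux/IAA genes and the AUX/LAX gene Solyc01g111310 in each library (points) at 7, 14 and 21 DAG, coloured by group, with bars for mean ± SD, cut at 0, and without the heterografted stocks of 14 DAG. At 7 DAG the heterografted scions of Solyc04g076850 (1206 to 1746 CPM) and its heterografted stocks (208 to 434 CPM) lie on either side of the ungrafted stems (855 to 1156 CPM).

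Of the remaining Aux/IAA genes, Solyc12g007230 passed the test in heterografted scions of 7 DAG, with 34.4, 40.9, 46.3, 54.8 and 55.05 CPM against 63.98, 85.1, 97.8 and 119.8 CPM in self-grafted scions and no overlap (log2FC -1.02, adjusted p = 0.0156). By 21 DAG its order had turned, with 40.7, 45.4, 46.8 and 72.2 CPM against 19.3, 23.2, 35.8 and 40.5 CPM (log2FC 0.67, adjusted p = 0.151). The change in the difference between heterografted and self-grafted scions from 7 to 21 DAG was 1.71 on the log2 scale (edgeR interaction, adjusted p = 0.00188). Only 2 of the 31 auxin genes passed this interaction test (2 or 3 with 1 library left out, and 1 without self-grafted scion replicate 3 of 21 DAG), which 8.18% of all tested genes passed by adjusted p alone. Solyc09g090910 held 47.3, 47.8, 53.1 and 78.8 CPM against 91.6, 96.4, 111 and 119 CPM at 14 DAG (log2FC -0.83, adjusted p = 0.00421). Solyc09g064530 held 10.53, 10.8, 16.2 and 21.1 CPM against 22.6, 25.3, 27.4 and 32.3 CPM (log2FC -0.82, adjusted p = 0.0352). Both were below self-grafted scions without overlap and without a call. Solyc01g097290 was called once, in the heterografted stock of 7 DAG at 10.4 to 26.2 CPM against 32.2 to 111 CPM in self-grafted stocks (log2FC -2.33, adjusted p = 0.0358), lost in 5 of 7 fits with 1 library left out.

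Solyc03g120390 (Aux/IAA) had 0 calls, with group means of 0 to 19.8 CPM. In heterografted scions it held 10.4 to 21.2, 7.77 to 29.01 and 5.12 to 22.7 CPM at 7, 14 and 21 DAG, against 0 to 9.09, 0 to 16.6 and 0 to 3.22 CPM in ungrafted stems. It was called higher at 21 DAG (log2 fold change 3.99, adjusted p = 0.037) once the shallow heterografted stocks of that day were left out of the fit, a choice made after seeing the data. DESeq2 also called it, at 14 and 21 DAG. The 3 Aux/IAA genes that did not pass the filter had group means of at most 6.39 CPM (Solyc06g084070), 8.66 CPM (Solyc08g021820) and 20.9 CPM (Solyc06g066020). The last of these was at 14.9, 17.1, 20.2, 20.99 and 31.4 CPM in heterografted scions of 7 DAG, at 0 in each of the 4 self-grafted scions and at 0, 0, 1.69 and 4.26 CPM in ungrafted stems. With no filter it was called higher than in self-grafted scions at 7 DAG (adjusted p = 0.0153).

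Among the listed ARF genes, the transcription factors that act on auxin response elements, 0 of the 6 tested were called in heterografted scions against ungrafted stems or self-grafted scions. By adjusted p alone, 3, 2 and 1 passed as lower against ungrafted stems at 7, 14 and 21 DAG, where 8.89%, 13.4% and 8.09% of all tested genes passed as lower, and 0, 2 and 1 against self-grafted scions (3.64%, 12.2% and 8.67% of all tested genes). As higher 0 of the 6 passed in the main fits, against 8.6%, 13.4% and 5.9% and 2.29%, 11.4% and 5.7% of all tested genes in the same comparisons. The DESeq2 Wald test, however, called Solyc11g069190 higher against ungrafted stems at 21 DAG (log2FC 2.47, adjusted p = 0.0196). So did edgeR without the shallow heterografted stocks of that day (log2FC 2.61, adjusted p = 0.0476), a setting added after seeing the data. The ARF genes outside the list are described further on. Solyc12g042070 held 54.7, 58.7, 61.9 and 79.2 CPM in heterografted scions of 21 DAG, 100.9, 125, 129.6 and 143 CPM in ungrafted stems and 89.9, 101.5, 102 and 129 CPM in self-grafted scions. The heterografted scions overlapped neither (log2FC -1.17 ± 0.20 SE, adjusted p = 0.00133 and log2FC -0.87, adjusted p = 0.00736). At 14 DAG it was at 68.5, 70.1, 74.1 and 75.4 CPM against 106, 115, 118 and 133 CPM in self-grafted scions (log2FC -0.66, adjusted p = 0.0117). At 7 DAG it was at 47.1, 47.6, 56.7, 58.8 and 64.7 CPM against 60.97, 82.4, 92.8 and 95.4 CPM in ungrafted stems (log2FC -0.73, adjusted p = 0.0105) and did not pass against self-grafted scions (log2FC -0.16, adjusted p = 0.792).

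Solyc01g103050 passed at 14 DAG, with 13.4, 17.2, 18.5 and 21.9 CPM in heterografted scions, 31.2, 34.5, 36.3 and 42.9 CPM in self-grafted scions (log2FC -0.98, adjusted p = 0.00165). It was at 19.7, 21.4, 25.3, 26.6 and 32.3 CPM in ungrafted stems (log2FC -0.59, adjusted p = 0.0279, with overlap). Solyc07g016180 was at 29.1, 32.7, 34.8, 37.8 and 43.3 CPM in heterografted scions and 24.8, 36.8, 39.01 and 59.7 CPM in heterografted stocks of 7 DAG. Both were below the 66.1, 69.1, 70.6 and 75.3 CPM of ungrafted stems (log2FC -1.12, adjusted p = 0.00145 and log2FC -0.9964, adjusted p = 0.00254). Solyc03g031970 passed in scions at 7 DAG (log2FC -0.50, adjusted p = 0.0496) and 14 DAG (log2FC -0.63, adjusted p = 0.00126). In the heterografted stocks of 7 DAG Solyc11g069190 was the 1 ARF called, with 0, 0, 0 and 2.91 CPM against 7.14, 7.27, 9.36 and 17.5 CPM in ungrafted stems (log2FC -4.11 ± 1.25 SE, adjusted p = 0.0157). Self-grafted stocks held 6.20, 9.003 and 18.98 CPM (log2FC -4.15, adjusted p = 0.0282). Without stock replicate 1, the 1 library above 0, the stocks were at least 6.83-fold and at least 7.54-fold lower. This second call was lost in 5 of 7 fits with 1 library left out and both were lost when the fit held just the compared groups. Solyc02g077560 passed there (log2FC -0.90, adjusted p = 0.00956) with overlapping libraries. The 3 ARF genes below the filter, Solyc03g118290, Solyc12g006340 and Solyc07g042260, had group means of at most 3.99, 0.877 and 4.64 CPM.

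Of the GH3 genes, whose enzymes conjugate auxin, 3 were tested. Against ungrafted stems of 7 DAG, 1 was called higher in heterografted scions and 2 in heterografted stocks (5.08% and 9.46% of all tested genes). Against self-grafted scions of 14 DAG, 2 were called lower in heterografted scions (3.44% of all tested genes). Solyc01g107390 was at 0 in each of the 4 ungrafted stems of 7 DAG and at 33.6, 39.03, 49.8, 71.5 and 152 CPM in heterografted scions and 0, 22.5, 30.01 and 52.1 CPM in heterografted stocks. Against the floor of 3 counts per library these were at least 31.1-fold higher (adjusted p = 0.0145) and at least 11.7-fold higher (adjusted p = 0.0248). The gene split between 0 and high counts in 8 of 14 groups, as described above, and the bounds cover counting error only. Self-grafted scions of that day, at 0, 0, 60.5 and 64.1 CPM, and stocks, at 0, 20.6 and 25.5 CPM, held libraries at 0 beside others in the same range as the heterografts, and the scion difference from self-grafts did not pass (log2FC 1.14, adjusted p = 0.761). Its ungrafted stems were no longer all at 0 later, with 0, 23.1, 28.6, 34.6 and 116 CPM at 14 DAG and 0, 0, 12.8 and 33.8 CPM at 21 DAG. A stock library at 0 overlapped the ungrafted stems, and the stock call was lost without ungrafted replicate 1 or 2 or stock replicate 5. The scion call was lost in 0 of 9 fits with 1 library left out.

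Solyc05g006220 (GH3) was at 10.96, 13.8, 14.8 and 46.5 CPM in heterografted stocks of 7 DAG against 0, 0, 1.70 and 7.34 CPM in ungrafted stems (log2FC 2.99 ± 0.92 SE, adjusted p = 0.0163), lost without stock replicate 5 or when the fit held just the compared groups. Without ungrafted replicate 1, the library at 7.34 CPM, the log2FC was 4.9964. The self-grafted stocks, at 8.70, 14.2 and 25.5 CPM, were in the same range (log2FC 0.38, adjusted p = 0.843). At 14 DAG this gene and Solyc07g063850 were downregulated in heterografted scions against self-grafted scions. The former held 0, 0, 0.956 and 2.43 CPM against 7.58, 12.1, 15.3 and 23.8 CPM (log2FC -4.01 ± 1.25 SE, adjusted p = 0.0274). The latter held 2.55, 2.59, 2.98 and 5.27 CPM against 10.4, 11.6, 13.6 and 21.96 CPM (log2FC -2.05 ± 0.53 SE, adjusted p = 0.00931), and neither overlapped. For Solyc07g063850 the heterografted scions were in the range of the ungrafted stems (0 to 5.59 CPM), and the self-grafted scions stood above both. The call for Solyc05g006220 was lost in 4 of 8 fits with 1 library left out, and its log2FC was -5.16 without heterografted scion replicate 3. That for Solyc07g063850 was lost in 0 of 8. The GH3 genes below the filter, Solyc02g064830, Solyc02g092820 and Solyc10g008520, had group means of at most 4.35, 23.4 and 20.96 CPM. With no filter, Solyc02g092820 was called higher in heterografted scions of 7 DAG than in ungrafted stems (log2FC 5.87, adjusted p = 0.0116). It was also called higher there than in heterografted stocks (log2FC 5.00, adjusted p = 0.00946), and Solyc10g008520 was called lower than in these stocks (log2FC -3.59, adjusted p = 0.0353).

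Of the AUX/LAX auxin importers, Solyc01g111310 differed between tomato scions on pepper and tomato stocks under pepper. At 7 DAG it was at 0, 0, 8.06 and 13.8 CPM in heterografted stocks, against 66.2, 68.9, 81.3 and 81.8 CPM in ungrafted stems, 45.2, 60.02 and 69.98 CPM in self-grafted stocks and 44.8, 66.3, 75.5, 82.3 and 86.05 CPM in heterografted scions. The stocks lay below every library of these groups, 15.9-fold lower than ungrafted stems (log2FC -3.99 ± 0.64 SE, adjusted p = 1.02e-04), 11.6-fold lower than self-grafted stocks (log2FC -3.53, adjusted p = 7.80e-04) and 13.9-fold lower than the scions of the reciprocal graft (adjusted p = 1.49e-04). The call against self-grafted stocks was lost when the fit held just the compared groups. Without stock replicate 1 the log2FC of the stocks was -4.77 against ungrafted stems and -4.31 against self-grafted stocks, and that of the scions against the stocks 4.57. In ungrafted stems the gene fell over the days, to 31.7, 38.9, 41.7, 49.1 and 57.7 CPM at 14 DAG and 9.32, 15.7, 16.6 and 33.99 CPM at 21 DAG. In self-grafted scions it fell to 36.9, 38.3, 40.7 and 61.4 CPM at 14 DAG and 0, 7.06, 9.12 and 11.8 CPM at 21 DAG. Heterografted scions kept 62.4, 66.1, 76.5 and 84.7 CPM at 14 DAG and 48.5, 53.3, 59.6 and 80.2 CPM at 21 DAG. Against self-grafted scions the difference passed at 14 DAG (log2FC 0.77, adjusted p = 0.0106) and was called at 21 DAG (log2FC 2.96 ± 0.84 SE, adjusted p = 0.0266). Against ungrafted stems of 21 DAG it did not pass (log2FC 1.48, adjusted p = 0.240). The difference between heterografted and self-grafted scions changed by 2.73 on the log2 scale from 7 to 21 DAG (edgeR interaction, adjusted p = 0.019). The 21 DAG call was lost in 6 of 8 fits with 1 library left out, and the interaction in 1 of 17, without self-grafted scion replicate 3 of 21 DAG.

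Solyc09g014380 had group means of 61.2 to 129 CPM and 0 calls. It passed once in scions, at 14 DAG with 66.04, 77.3, 80.02 and 99.8 CPM against 93.4, 130.2, 140.3 and 153 CPM in self-grafted scions (log2FC -0.63, adjusted p = 0.0149). Solyc11g013310 had 0 calls outside the heterografted stocks of 21 DAG, with 14.8, 16.2, 18.9 and 26.6 CPM in heterografted stocks of 7 DAG against 0, 0, 8.51 and 10.4 CPM in ungrafted stems (log2FC 1.82, adjusted p = 0.215). Solyc10g076790, the split gene described above, was at 0, 0, 0, 14.4 and 20.2 CPM and 0, 0, 14.2 and 34.4 CPM in heterografted scions of 7 and 14 DAG, and no comparison of it passed by edgeR with all groups of a day in the fit. In the shallow heterografted stocks of 21 DAG it was called lower by DESeq2 against both references and, against ungrafted stems, by edgeR with DESeq2's size factors (adjusted p = 0.0475) or with just the compared groups (adjusted p = 0.00243).

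The heterografted stocks of the later days could support little. At 14 DAG the 3 libraries held 2 counts on the 40 auxin genes in 3321 counts in all, both of Solyc04g076850 in 1 library. A count of 3 there corresponds to 1988 to 3333 CPM per library, and no test was made. At 21 DAG they held 195, 47 and 241 counts on these genes, and 15 of the 31 tested genes were at 0 in all 3 libraries, where 3 counts correspond to 13.2, 91.7 and 11.2 CPM. Against ungrafted stems, edgeR called 1 gene up and 14 down (5.35% and 54.9% of all tested genes, 60.3% in either direction), with a median log2 fold change of -3.24 for the auxin genes and -3.74 for all genes. Against self-grafted stocks 0 were called up and 14 down (4.39% and 55.4% of all tested genes, 59.8% in either direction), with medians of -3.42 and -3.67. The difference between these medians was not tested. For the ARF gene Solyc12g042070, at 0 in all 3, the level was at least 3.22-fold lower than in ungrafted stems and at least 2.78-fold lower than in self-grafted stocks. Among the genes that still gave counts were Solyc04g076850 at 216, 404 and 580.5 CPM, Solyc01g107390 at 35.3, 59.9 and 549.9 CPM and Solyc06g053840 at 0, 0 and 26.2 CPM. The 1 upregulated gene, Solyc09g083280, was at 0, 44.9 and 110.3 CPM against 5.82, 6.37, 9.12 and 10.49 CPM and lost its call without the filter, when the fit held just the compared groups, or without stock replicate 1.

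Ungrafted stems themselves differed between 7 and 21 DAG. In comparisons between days, age cannot be told apart from any difference in harvest or handling between the days. Of the 31 genes, 1 was called higher and 5 lower at 21 DAG than at 7 DAG, where 10.4% of all tested genes were called higher and 8.54% lower (18.9% in either direction). Solyc03g121060 (Aux/IAA) rose from 63.8 ± 5.94 CPM (SD, n = 4) to 183 ± 74.96 CPM (SD, n = 4) (log2FC 1.61, adjusted p = 1.48e-04). The library at 74.4 CPM was little above those of 7 DAG. The call was lost under DESeq2 scaling or testing or without 21 DAG replicate 1. Lower at 21 DAG were Solyc01g111310 (log2FC -1.88, adjusted p = 0.00702), Solyc09g083280 (log2FC -2.02, adjusted p = 0.00136), Solyc06g008580 (log2FC -4.97, adjusted p = 0.0189) and Solyc12g096980 (log2FC -3.36, adjusted p = 0.0262). The last 2 were lost in 2 and 4 of 8 fits with 1 library left out, and that of Solyc12g096980 also when the fit held just the compared groups. Each had 1 library above 0 at 21 DAG (replicate 1 and replicate 2), without which they were at least 12.9-fold and at least 4.68-fold lower. Solyc03g120380 was at 0 in all 4 libraries of 21 DAG and at least 17.8-fold lower (adjusted p = 7.13e-04). Solyc12g096980, Solyc01g111310 and Solyc03g120380 were thus lower in ungrafted stems of 21 DAG, the day on which their heterografted scions stood at 27.4, 60.4 and 10.3 CPM on average.

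A wider list of 41 auxin genes (PIN exporters, further ARF and AUX/LAX genes, AFB receptors, TOPLESS co-repressors and the YUCCA and TAR enzymes of auxin synthesis) had 20 genes past the filter. In heterografted scions 0, 1 and 2 of these were called higher against ungrafted stems at 7, 14 and 21 DAG and 0 lower on each day, and against self-grafted scions 0, 0 and 2 were called higher and 0 lower. In heterografted stocks of 7 DAG, 2 were called lower against ungrafted stems and 1 against self-grafted stocks, with 0 higher in both. The shares of all tested genes called in the same comparisons are those given above. By adjusted p alone, the 8 further ARF genes past the filter had 1, 5 and 1 higher and 0, 1 and 0 lower in heterografted scions against ungrafted stems at 7, 14 and 21 DAG. Against self-grafted scions they had 1, 3 and 2 higher and 0, 1 and 0 lower, and the shares of all tested genes are those given beside the listed ARF genes. The ARF gene Solyc04g081240 stood at 103 ± 22.9 CPM (SD, n = 5), 72.1 ± 11.7 CPM (SD, n = 4) and 64.00 ± 16.2 CPM (SD, n = 4) in heterografted scions of 7, 14 and 21 DAG. Ungrafted stems held 39.8 ± 4.96 CPM (SD, n = 4), 28.8 ± 6.57 CPM (SD, n = 5) and 13.9 ± 9.40 CPM (SD, n = 4). It passed on each day (log2FC 1.22, adjusted p = 9.80e-04, and log2FC 1.23, adjusted p = 1.36e-04, and log2FC 1.9997, adjusted p = 0.00317), and at 21 DAG it was called.

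Both PIN genes called in these comparisons were higher in a heterografted scion and lower in the heterografted stock of 7 DAG. Solyc03g118740 was at 30.3 ± 7.78 CPM (SD, n = 4) in heterografted scions of 21 DAG and 8.78 ± 3.56 CPM (SD, n = 4) in ungrafted stems (log2FC 1.58, adjusted p = 0.00643). It was at 3.41 ± 5.46 CPM (SD, n = 4) in heterografted stocks of 7 DAG against 17.4 ± 4.46 CPM (SD, n = 4) (log2FC -2.43, adjusted p = 0.0264). Solyc04g007690 was at 0 in each of the 4 heterografted stocks of 7 DAG, at least 39.03-fold lower than ungrafted stems at 65.6 ± 24.7 CPM (SD, n = 4) (adjusted p = 5.26e-05). At 21 DAG it was at 0 in each of the 4 self-grafted scions and at 33.8 ± 8.13 CPM (SD, n = 4) in heterografted scions, at least 19.5-fold higher (adjusted p = 0.00549). The ARF gene Solyc09g007810 was the other gene called in scions, at 14 DAG (log2FC 1.61, adjusted p = 0.0196).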

How the data were processed

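Stem pieces of tomato were profiled by 3' RNA-seq (Lexogen QuantSeq FWD). The authors trimmed reads with Trimmomatic and Prinseq, checked them with FastQC 0.12.1, aligned them with STAR 2.7.10b to tomato with ITAG4 gene models, handled alignments with SAMtools 1.18 and StringTie, removed outlying low-count libraries, and deposited raw read counts per gene. How reads matching several genes were shared out, which bears on gene families, is not given in the sources used here. The pepper table was not used here.

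Counts of 61 libraries were tested with edgeR 4.0.16 (R 4.3.3), by the quasi-likelihood test with TMM scaling and Benjamini-Hochberg adjustment over 12176 genes that had a mean of at least 10 counts and 0 counts in fewer than 75% of libraries. Each day was fitted with its 5 groups together, and 1 fit over all libraries gave the change in ungrafted stems and the interaction with time. Standard errors were taken from the F statistic and are approximate. A call needed an adjusted p under 0.05 and an absolute log2 fold change over 1.5. Levels are CPM, computed from the deposited counts and library totals. Totals were 952084 to 3136541 in 55 libraries and far lower in the 6 heterografted stocks of 14 and 21 DAG, and a fold against a group at 0 is a bound at 3 counts per library, covering counting error only.

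By rule, values in every library were given for at most 16 genes with the most calls against ungrafted stems or self-grafts and for the gene of highest mean CPM in each family, and other members by range and calls. Other members given by library (among them Solyc11g069190, Solyc05g006220 and Solyc07g063850) were chosen after their values were seen. Of the wider auxin list, up to 6 genes with the most calls were named. The members and lists were chosen with earlier results of these data known. Same-numbered samples, pooled over all pairs of groups, did not deviate together, so numbers were not used to pair them. Self-grafted scions and stocks may come from the same plants, which this pooled check cannot decide. Alternatives were DESeq2 1.42.0 (its size factors and its Wald test), no filter, the replicate block, fits of just the compared groups, each library left out, an adjusted p alone, and fits without the shallow stocks. The scripts were tested on simulated data. No tomato sequence was used here.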

Additional observations from a re-analysis of the deposited data

Results flagged for a closer look

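Dixon's test was applied to 231 sets of 4 to 10 replicates of the named genes. In 20 of them (8.66%), the gap of 1 library to its nearest neighbour passed the 95% value. In most of these 20 the other libraries stood at or near 0. Dixon's value presumes normally distributed values, so its chance rate does not hold for such sets. In heterografted scions of 21 DAG, replicate 4 was the outlying library 4 times: at 139.3 CPM for Solyc06g053840, 3.73 CPM for Solyc06g053830, 17.2 CPM for Solyc06g008580 and 236 CPM for Solyc09g074520.

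In heterografted scions of 14 DAG, replicate 1 held 11.8 CPM of Solyc06g008590. In heterografted stocks of 7 DAG, Solyc12g096980 was at 3.82 CPM in replicate 2 and Solyc06g053830 at 6.56 CPM in replicate 1, with the other libraries at 0. Solyc12g096980 was at 0 in ungrafted replicate 4 of 14 DAG, below the other 4, at 2.68 CPM in ungrafted replicate 2 of 21 DAG and at 3.53 CPM in self-grafted scion replicate 4 of 21 DAG, the other libraries of 21 DAG being at 0.

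Self-grafted stock replicate 3 of 14 DAG was high for 3 genes, with 34.5 CPM of Solyc03g120380, 48.9 CPM of Solyc09g083280 and 23.0 CPM of Solyc01g107390. Self-grafted scion replicate 2 of 14 DAG held 61.4 CPM of Solyc01g111310. Self-grafted scion replicate 2 of 21 DAG held 1.71 CPM of Solyc03g120380 and 239 CPM of Solyc09g074520, the others of its group being at 0. Ungrafted stems of 21 DAG held 2.24 CPM of Solyc06g008580 in replicate 1 and 295 CPM of Solyc09g074520 in replicate 4. Self-grafted stocks of 21 DAG held 3.54 CPM of Solyc06g008580 in replicate 4 and 100.2 CPM of Solyc09g090910 in replicate 1.

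The difference between heterografted and self-grafted scions changed from 7 to 21 DAG for 2 genes by the edgeR interaction test: by 1.71 on the log2 scale for Solyc12g007230 (adjusted p = 0.00188) and by 2.73 for Solyc01g111310 (adjusted p = 0.0190).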

How the results depend on the processing

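Among the 83 gene results called in the main fits, no log2 fold change turned its sign. Of their values, 390 of 440 under other settings and 558 of 676 with 1 library left out kept the call. The rest fell short of it. These counts do not cover results that were not called. Of 146 counts of calls, 125 stayed within 1.5 times.

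By adjusted p alone, heterografted scions had 7, 10 and 5 genes against ungrafted stems at 7, 14 and 21 DAG, and 3 and 13 against self-grafted scions at 7 and 14 DAG, and ungrafted stems of 21 against 7 DAG had 10. The DESeq2 Wald test gave 2 and 3 genes in self-grafted scions and stocks of 7 DAG, 2 and 1 in those of 14 DAG, 5 in heterografted scions of 7 DAG against ungrafted stems and 3 in those of 14 DAG against self-grafted scions, where DESeq2's size factors also gave 3. With no filter, heterografted against self-grafted scions of 7 DAG had 2. When the fit held just the compared groups, self-grafted scions of 14 DAG had 0, and heterografted stocks of 7 DAG had 7 against ungrafted and 4 against self-grafted stocks. Without the heterografted stocks of 21 DAG, heterografted scions of that day had 5 against ungrafted stems, a setting added after seeing the data. Without those of 14 DAG, DESeq2's size factors kept all 9 calls of 14 DAG, a setting also added after seeing the data.

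Pooled over all pairs of groups, same-numbered samples did not deviate together (median r of their deviations 0.0084 over 92 pairs, 8 of them over 0.1). Most such pairs join different plants, so this cannot decide whether self-grafted scions and stocks were paired. With the replicate block, heterografted scions had 1 call against ungrafted stems at 7 DAG and 1 at 21 DAG, and self-grafted scions of 14 DAG had 0. Calls not met with the block were those of Solyc07g063850 in self-grafted scions of 14 DAG, Solyc01g107390 in heterografted scions and stocks of 7 DAG, Solyc12g096980 in heterografted scions of 14 and 21 DAG, Solyc03g120380 in those of 21 DAG, Solyc05g006220 in those of 14 DAG, Solyc11g069190 against self-grafted stocks of 7 DAG, Solyc06g008580 between heterografted scions and stocks of 7 DAG and Solyc09g083280 in heterografted stocks of 21 DAG. With the block Solyc09g074520 was called lower in heterografted than in self-grafted stocks of 21 DAG (adjusted p = 0.0294).

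With 1 library left out, calls against ungrafted stems ranged from 0 to 1 in self-grafted scions and stocks of 7 and 14 DAG, from 1 to 4 and 0 to 3 in heterografted scions of 14 and 21 DAG, and from 6 to 11 in heterografted stocks of 7 DAG. Against self-grafted scions they ranged from 2 to 5 at 14 and 21 DAG, and the interaction from 1 to 3. Depth limits the heterografted stocks of 14 and 21 DAG.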
